A study of Mus musculus with 26 samples.

Results

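The mir-99/100 and mir-125 genes of the mouse lie in 3 clusters, and each cluster holds 1 gene of the mir-99/100 family, 1 let-7 gene and 1 gene of the mir-125 family. All 6 precursor entries of the 2 named families were taken from the small RNA table by name: mmu-mir-99a, mmu-mir-99b, mmu-mir-100, mmu-mir-125a, mmu-mir-125b-1 and mmu-mir-125b-2. They are 6 of the 1054 miRNA entries among 1360 small RNA entries, and all 6 passed the filter on low counts, which left 463 entries. Small RNA was sequenced from dorsal hippocampus (dHC) and ventral hippocampus (vHC), both hemispheres, of male C57BL/6J mice of 2 to 3 months. Control mice stayed in the home cage, and stressed mice swam for 6 min in water of 18 °C and were taken 45 mins after the start of stress. There were 26 libraries, 14 of vHC (8 control, 6 swim) and 12 of dHC (6 control, 6 swim), in 3 blocks with 10, 8 and 8 libraries that each held all 4 groups. The block is a date in the labels, and the sources used here do not say which step it marks. The labels do not say whether a dHC and a vHC library came from the same animal, and p-values therefore measure the spread between these libraries.

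A miRNA is cut from a hairpin precursor and guides Argonaute proteins to mRNAs that pair with its seed, bases 2 to 8. Genes of a cluster can be made as 1 long transcript, from which each hairpin is then processed on its own, and the amount of each mature miRNA also depends on its processing and its stability. The mir-100/let-7/mir-125 arrangement is an ancient one in animals. miR-125b and miR-125a are abundant in the brain, and miR-125b is known for roles in neuronal differentiation and at synapses, while the miR-99/100 family is known for targeting mTOR and related growth genes. The let-7 genes, which are known for timing development and are repressed by LIN28 in early cells, are given here only as the third partner of each cluster.

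The mature 5p sequences are shown because members with the same seed correlated with each other, as given further on. RefSeq (GRCm38.p6) held them for the members and for let-7c and let-7e, with the seed in capitals here, 5′ to 3′:
mmu-miR-99a-5p: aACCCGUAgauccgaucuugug
mmu-miR-100-5p: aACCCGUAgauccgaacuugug
mmu-miR-99b-5p: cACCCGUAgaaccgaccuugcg
mmu-miR-125a-5p: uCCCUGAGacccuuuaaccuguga
mmu-miR-125b-5p: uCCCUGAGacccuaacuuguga
mmu-let-7c-5p: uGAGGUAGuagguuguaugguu
mmu-let-7e-5p: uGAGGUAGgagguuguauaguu
The seed ACCCGUA was held by 3 of 1679 distinct mature sequences, all of this family. The seed CCCUGAG was held by 5, which are miR-125a-5p, miR-125b-5p, miR-351-5p, miR-6367 and miR-6394. Counted from the 5′ end, miR-100-5p differs from miR-99a-5p by the single substitution U16A. From miR-99a-5p to miR-99b-5p there are 4 substitutions, A1C, U11A, U16C and U21C. miR-125a-5p and miR-125b-5p share their first 13 bases and have 24 and 22. mir-125b-1 and mir-125b-2 give the same 5p sequence, and the split of reads between these 2 entries is therefore uncertain.

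On GRCm38 with the GENCODE vM21 annotation, all 9 hairpins of the 3 clusters lie on the plus strand. On chromosome 16, mir-99a (chr16:77598936-77599000), let-7c-1 (chr16:77599657-77599750) and mir-125b-2 (chr16:77646273-77646343) span 47408 bp and lie in introns of the long non-coding RNA gene Mir99ahg. On chromosome 17, mir-99b (chr17:17830188-17830257), let-7e (chr17:17830352-17830444) and mir-125a (chr17:17830812-17830879) span only 692 bp within the protein-coding gene Spaca6, where mir-99b and let-7e are intronic and mir-125a overlaps an exon. On chromosome 9, mir-100 (chr9:41531425-41531504), let-7a-2 (chr9:41536716-41536811) and mir-125b-1 (chr9:41581926-41582002) span 50578 bp in introns of the non-coding genes 3110039I08Rik and Gm49317. Other annotated genes overlap single hairpins, such as the antisense Gm48742 at mir-100, Gm28119 at mir-125b-1 and C130023A14Rik at mir-125b-2.

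Total miRNA counts were between 465387 (control dHC library 24) and 4819724 per library, and the labelled tissue was checked by its markers. The 7 neuronal entries (mir-124, mir-128 and mir-138) summed to between 80894 and 102996 CPM (counts scaled to a common miRNA total of 1e+06) in every library, against 4.30 to 20.4 CPM for mir-122 of liver. The 3 oligodendrocyte entries (mir-219a-1, mir-219a-2 and mir-338) were called higher in dHC than in vHC, 3 of 3 in control mice and 3 of 3 after swim. Of all 463 entries, 22.5% were called between the regions in control mice and 20.3% after swim. The summed CPM of the oligodendrocyte entries was 3371 to 5014 in control vHC and 4611 to 7385 in control dHC. Of 6 choroid plexus entries, 3 were higher and 3 lower in dHC in control mice, and 1 was higher and 3 lower after swim. Of 4 blood entries, 2 were lower in control mice and 1 after swim. Of the 7 neuronal, 3 microglia and immune cell, and 3 endothelial and mural cell entries tested, 0 were called in either region contrast. The part of these cell types in the regional values below was not tested. Library 6 of swim dHC stood apart in the members themselves. It had the highest mir-99b and mir-100 and the lowest mir-125a, mir-125b-1 and mir-125b-2 of all 26 libraries. Fitted differences and correlations that rest on it are given with and without it. In bulk tissue, fewer cells of a type and less RNA per cell cannot be told apart.

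The 6 members together made up 7.46% ± 0.976 (SD, n = 26) of the miRNA counts, from 4.86% in swim dHC library 6 to 9.37% in control vHC library 17. Ranked by total count among the 1054 miRNA entries, mir-125a was number 11, mir-125b-2 number 13, mir-125b-1 number 14, mir-99a number 35, mir-100 number 45 and mir-99b number 64. Levels are given below as normalized CPM, that is CPM after TMM scaling of the library totals, and the mature 5p forms compared are 22 or 24 bases long. The mean normalized CPM over all libraries was 18424 for mir-125a, 18287 for mir-125b-2, 17717 for mir-125b-1, 8880 for mir-99a, 7081 for mir-100 and 4608 for mir-99b. mir-125a exceeded mir-125b-2 in only 16 of 26 libraries, and these neighbours did not differ beyond their spread, with a mean log2 ratio of 0.0017 ± 0.21 (SD). mir-125b-2 exceeded mir-125b-1 in 26 of 26 libraries, by a gap of 0.669% to 4.34% of their sum. mir-125b-1 exceeded mir-99a in 25 of 26 libraries, swim dHC library 6 being the exception, mir-99a exceeded mir-100 in 26 of 26 and mir-100 exceeded mir-99b in 26 of 26. The mir-125 entry was thus the higher one in each cluster in all libraries but swim dHC 6.

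The families also differed in how much they varied. The SD of log2 CPM over 26 libraries was 0.21 for mir-99a, 0.20 for mir-100 and 0.26 for mir-99b. It was 0.42 for mir-125a, 0.37 for mir-125b-1 and 0.35 for mir-125b-2, while the median entry of the 463 had 0.41. Thus 4.97% of entries varied less than mir-99a and 3.89% less than mir-100, against 50.3% for mir-125a. In swim dHC library 6 the log2 CPM of mir-125a was 12.5, and the next lowest library, control vHC 7, had 13.8. The SDs without swim dHC library 6 were not computed, and the contrast between the families may rest partly on it.

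mir-99a, the mir-99/100 member of the chromosome 16 cluster, was the most abundant of its family. Its normalized CPM ran from 6508 to 10392 (median 7815) in control vHC and from 8063 to 9489 (median 8575) in swim vHC. In dHC it ran from 8600 to 12292 (median 9297) in control mice and from 8460 to 11507 (median 9259) after swim. The dHC medians lay above the vHC medians, and the groups overlapped in both conditions.

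mir-99b, the first hairpin of the compact chromosome 17 cluster, was the lowest member. Its normalized CPM ran from 3646 to 5653 (median 4399) in control vHC and from 3347 to 5607 (median 4015) in swim vHC. In dHC it ran from 4216 to 5538 (median 4681) in control mice and from 4249 to 7484 (median 4555) after swim. The top value of 7484 belonged to swim dHC library 6, and all groups overlapped.

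mir-100, which opens the chromosome 9 cluster, followed mir-99a closely at a lower level. Its normalized CPM ran from 5505 to 8807 (median 6233) in control vHC and from 6406 to 7531 (median 6830) in swim vHC. In dHC it ran from 6863 to 9940 (median 7128) in control mice and from 6215 to 10086 (median 6966) after swim. The top values in dHC belonged to control dHC library 24 and swim dHC library 6.

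mir-125a, the last hairpin of the chromosome 17 cluster, had the widest range of the members. Its normalized CPM ran from 13856 to 26683 (median 19423) in control vHC and from 14259 to 21215 (median 17504) in swim vHC. In dHC it ran from 15736 to 22809 (median 17686) in control mice and from 5761 to 24576 (median 16801) after swim. Swim dHC library 6, at 5761, was 0.325 of the median of all libraries, while its mir-99b, from the same cluster, was 1.70 times that median.

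mir-125b-1 and mir-125b-2 had nearly the same values in each library. For mir-125b-1, normalized CPM ran from 14015 to 24323 (median 19381) in control vHC, from 13305 to 21312 (median 18976) in swim vHC, from 12445 to 28548 (median 16850) in control dHC and from 8425 to 23169 (median 16061) in swim dHC. For mir-125b-2, it ran from 14634 to 24651 (median 19877), from 13976 to 21878 (median 19483), from 13179 to 29064 (median 17426) and from 9190 to 23534 (median 16683) in the same order. The highest value of both copies was that of control dHC library 24, the lowest that of swim dHC library 6, and all groups overlapped.

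**Figure D1:**
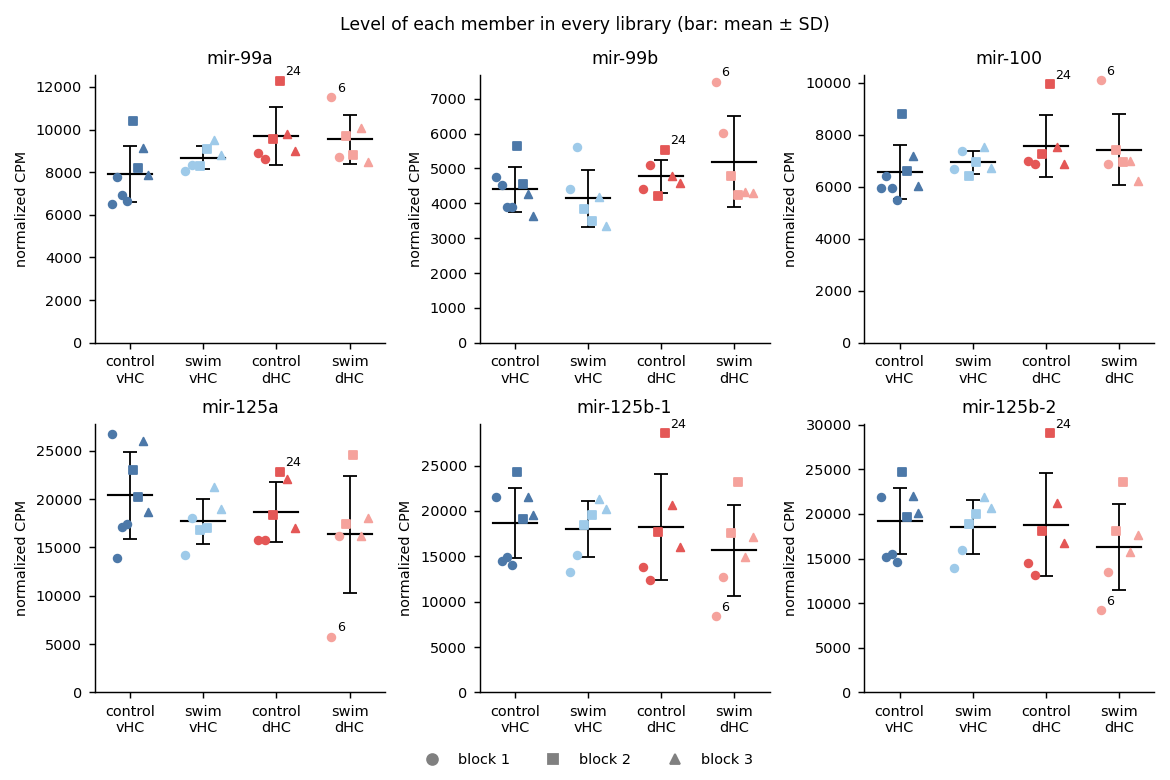
Normalized CPM (y axis, from 0) of each member in the 26 libraries by group (x axis), with the marker shape giving the block and the black bars the mean ± SD. Groups overlap for every member, and swim dHC library 6 (labelled 6) is high for mir-99b and mir-100 and lowest for the 3 mir-125 entries.

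The first question was whether the members changed after swim stress. Of the 6 members, 0 passed an adjusted p of 0.05 when stress and its interaction with region were tested together by edgeR's quasi-likelihood test, as did 0% of the 463 entries tested. The smallest adjusted p of a member was 0.725 by edgeR, DESeq2 also called 0 members and 0 entries, and 0 of the 6 members had an unadjusted p under 0.05, against 16 of all entries. The share called was likewise 0% for stress in vHC, 0% for stress in dHC and 0% for the interaction, with 0 members called in each by edgeR and by DESeq2. At an unadjusted p under 0.05 edgeR had 0, 2 and 0 members in these, against 34, 17 and 23 of all entries.

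In vHC, all 6 members had 95% intervals that included no change. mir-99a had a log2 fold change of 0.14 (SE 0.095), the smallest member p of 0.155 by edgeR and an adjusted p of 0.679. Its 95% interval for the fold was 0.962 to 1.26, and over the members the intervals reached from 0.734 for mir-125a to 1.26. mir-125b-1 had a log2 fold change of -0.0021 (SE 0.10) and mir-125b-2 of 0.0022 (SE 0.097).

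In dHC, the 3 mir-125 entries had negative log2 fold changes and mir-99b a positive one, none of which passed. mir-125b-1 had a log2 fold change of -0.23 (SE 0.11) and mir-125b-2 of -0.22 (SE 0.10), with unadjusted edgeR p of 0.0448 and 0.0470 and an adjusted p of 0.982. Both entries hold the same mature sequence and count as 1 observation. mir-125a had -0.22 (SE 0.16), and mir-99b had 0.15 (SE 0.13). Without swim dHC library 6, the log2 fold change of mir-125b-1 was -0.15 (SE 0.098), with an unadjusted p of 0.133 and an adjusted p of 0.996 by edgeR. In the same fit the log2 fold change was -0.064 for mir-125a and -0.00076 for mir-99b. The interaction of region and stress was between -0.23 for mir-125b-1 and 0.24 for mir-99b (SE 0.15 and 0.18), with an adjusted p of 0.954 for all 6 by edgeR.

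The second question was whether the members differed between dHC and vHC. In control mice, 22.5% of the 463 entries were called, 36 higher and 68 lower in dHC, and 0 of the 6 members were among them by edgeR (1 at an unadjusted p under 0.05, and 1 called by DESeq2). After swim, 20.3% were called, 35 higher and 59 lower, again with 0 members (1 at an unadjusted p under 0.05, and 0 called by DESeq2). The sign of the fitted difference went by seed family in both contrasts, although edgeR called no member. After swim this rested on swim dHC library 6, without which mir-100 had -0.032 and mir-125a 0.027. Members of 1 seed also correlate, so their signs are not separate results. In control mice the log2 fold change of dHC over vHC was 0.27 (SE 0.10) for mir-99a, 0.20 (SE 0.11) for mir-100 and 0.15 (SE 0.12) for mir-99b. It was -0.20 (SE 0.18) for mir-125a, -0.16 (SE 0.13) for mir-125b-1 and -0.14 (SE 0.13) for mir-125b-2. Within block 2 the difference of mean log2 CPM had the other sign for mir-99b (-0.069), mir-125b-1 (0.056) and mir-125b-2 (0.062).

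After swim it was 0.14 for mir-99a, 0.096 for mir-100 and 0.32 for mir-99b, and -0.15 for mir-125a, -0.23 for mir-125b-1 and -0.22 for mir-125b-2. Within block 2 the difference after swim was positive for mir-125a (0.30), mir-125b-1 (0.087) and mir-125b-2 (0.082), and within block 3 mir-100 had -0.11. The regional difference between the families was not tested beyond the ratios given below. In the model with surrogate variables in place of the block, the mir-125 entries turned positive. There the second surrogate variable was almost region itself, which accounted for 91.1% of its variance, and the median log2 fold change of all entries was -0.22. There the control values were 0.57 for mir-125a, 0.37 for mir-125b-1 and 0.38 for mir-125b-2, none of which passed.

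mir-99a came closest to a regional call. Its edgeR adjusted p was 0.0533 in control mice, with a difference of 0.33 in block 1, 0.23 in block 2 and 0.15 in block 3 on the log2 scale. It was called in 4 of 8 alternative fits, with DESeq2 size factors (adjusted p = 0.0186), TMMwsp scaling (0.0233), DESeq2 (0.00872) and summed mir-125b copies (0.0419), and in 16 of 26 edgeR fits that left out 1 library. Its adjusted p ranged from 0.00872 to 0.623 over the alternatives and from 0.0152 to 0.104 over the fits without 1 library. Without swim dHC library 6 its adjusted p was 0.0224 by edgeR, in a fit that called 119 entries for this contrast. The totals of entries called in the other alternative fits are not given here. mir-99b after swim had an unadjusted edgeR p of 0.0203 and an adjusted p of 0.0824, and without swim dHC library 6 its log2 fold change was 0.21 (SE 0.12, adjusted p = 0.248). It was called in 1 of 26 such fits, without swim vHC library 15 (edgeR adjusted p = 0.0375). For mir-125a after swim the difference was -0.15, and without swim dHC library 6 it was 0.027. For mir-100 it was 0.096, and without that library -0.032.

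**Figure D2:**
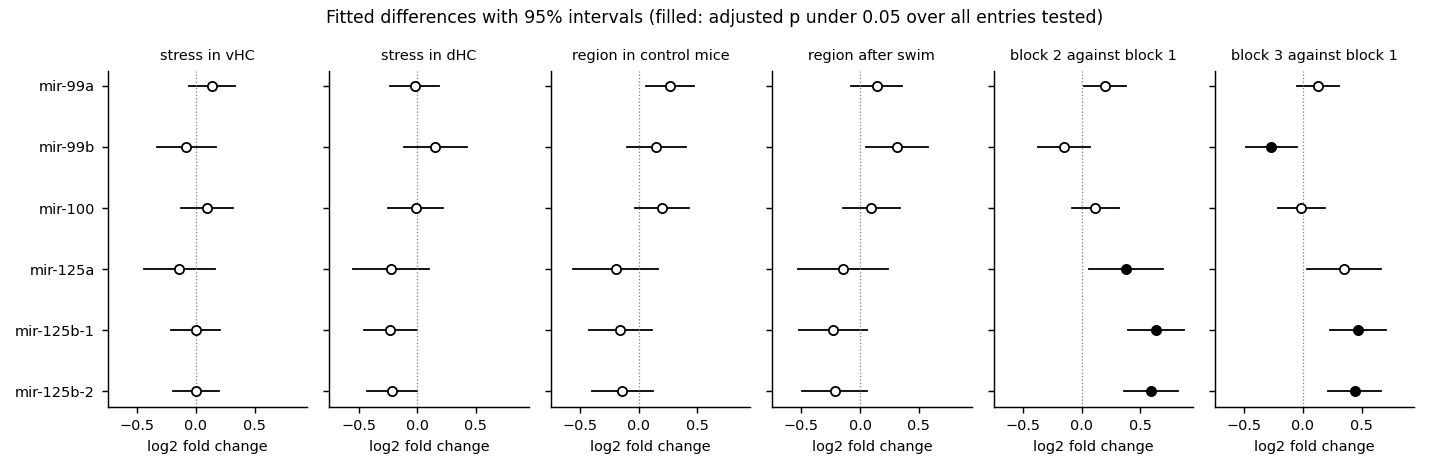
Fitted log2 fold change (x axis) of each member in 6 contrasts with its 95% interval (lines), positive for the first named group (swim, dHC, or the later block) and filled where the adjusted p was under 0.05. Filled points occur only in the block panels. In both region panels the 3 mir-99/100 entries lie right of 0 and the 3 mir-125 entries left. After swim, mir-100 and mir-125a change sign without swim dHC library 6.

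Members were called between the dated blocks, as were most entries. Over the 3 blocks, 53.1% of entries were called by edgeR, and 2 of the 6 members, mir-125b-1 (adjusted p = 1.65e-04) and mir-125b-2 (adjusted p = 2.03e-04). DESeq2 size factors, TMMwsp and DESeq2 each called 4 members, adding mir-125a and mir-99a. mir-125a had an edgeR adjusted p of 0.0644, and was called in 5 of 6 alternatives and 4 of 26 fits without 1 library. mir-99a had 0.132, and was called in 4 of 6 alternatives and 12 of 26 fits without 1 library, with an adjusted p from 0.0178 to 0.204 over the latter. Leaving out swim dHC library 16 or control vHC library 23 gave 4 members, and swim dHC library 6 gave 3, mir-99a being the third. The fit without swim dHC library 6 called 268 entries in all, and the totals of the other alternative fits are not given here. These member counts are therefore not read as a result about the members. Normalized CPM of mir-125b-1 ran from 8425 to 21584 (median 13915) in block 1, from 17530 to 28548 (median 19350) in block 2 and from 14950 to 21490 (median 19914) in block 3. In block 1, 9 of 10 libraries lay below every library of block 2, and 8 of 10 below every library of block 3. Control vHC library 1, at 21584, was an exception in both, and swim vHC library 15, at 15166, in the second.

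Between block 2 and block 1, where 52.5% of entries were called, the log2 fold change was 0.63 (SE 0.12) for mir-125b-1, 0.59 (SE 0.11) for mir-125b-2 and 0.38 (SE 0.15, edgeR adjusted p = 0.0406) for mir-125a. Between block 3 and block 1, where 52.1% were called, it was 0.47 (SE 0.12) for mir-125b-1 and 0.44 (SE 0.11) for mir-125b-2, and mir-99b fell by 0.27 (SE 0.11, adjusted p = 0.0395). Between block 3 and block 2, 0% of entries and 0 members were called by edgeR, with 51 of all entries and 0 members at an unadjusted p under 0.05. mir-100 was not called in any block contrast, with log2 fold changes of 0.12 and -0.012 (SE 0.098 each) against block 1. The let-7 partners let-7e, let-7c-1 and let-7a-2 were all called over the 3 blocks, with edgeR adjusted p of 4.74e-04, 0.0211 and 0.0201.

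Within a cluster, the ratio of the mir-99/100 to the mir-125 count needs no scaling between libraries. The mean log2 ratio over 26 libraries was -1.02 ± 0.38 (SD) for mir-99a over mir-125b-2, -1.97 ± 0.57 for mir-99b over mir-125a and -1.29 ± 0.41 for mir-100 over mir-125b-1. By group, mir-99a over mir-125b-2 averaged -1.27 ± 0.23 in control vHC (n = 8), -1.08 ± 0.18 in swim vHC, -0.91 ± 0.24 in control dHC and -0.72 ± 0.59 in swim dHC (n = 6 each). mir-99b over mir-125a averaged -2.19, -2.11, -1.96 and -1.57, and mir-100 over mir-125b-1 averaged -1.50, -1.36, -1.22 and -1.03 in the same order. In swim dHC the SD of these 2 ratios was 1.02 and 0.70. Without swim dHC library 6, the difference of swim dHC from control dHC was -0.016, -0.0035 and -0.064 for the 3 ratios. Only in swim dHC library 6 did the mir-99/100 member exceed its partner. Its log2 ratios were 0.32, 0.38 and 0.26, where the next highest libraries had -0.62, -1.42 and -0.86.

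These and other ratios among the members and let-7e were compared in 4 contrasts. Of the 28 exact permutation tests, all two-sided, 0 had an adjusted p under 0.05, also when libraries were permuted within blocks. The smallest p was that of mir-99a over mir-125b-2 between control dHC and control vHC, a difference of 0.35 with an exact p of 0.0117 and an adjusted p of 0.326. All 6 control dHC libraries lay above the median of control vHC, and the difference was 0.59, 0.17 and 0.31 within blocks 1, 2 and 3. For mir-99a over mir-100, 2 mature forms that differ at 1 base, the same contrast gave 0.088 (exact p = 0.0266, adjusted p = 0.373). In the same contrast the difference was 0.24 for mir-99b over mir-125a (exact p = 0.128) and 0.27 for mir-100 over mir-125b-1 (exact p = 0.0553).

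**Figure D3:**
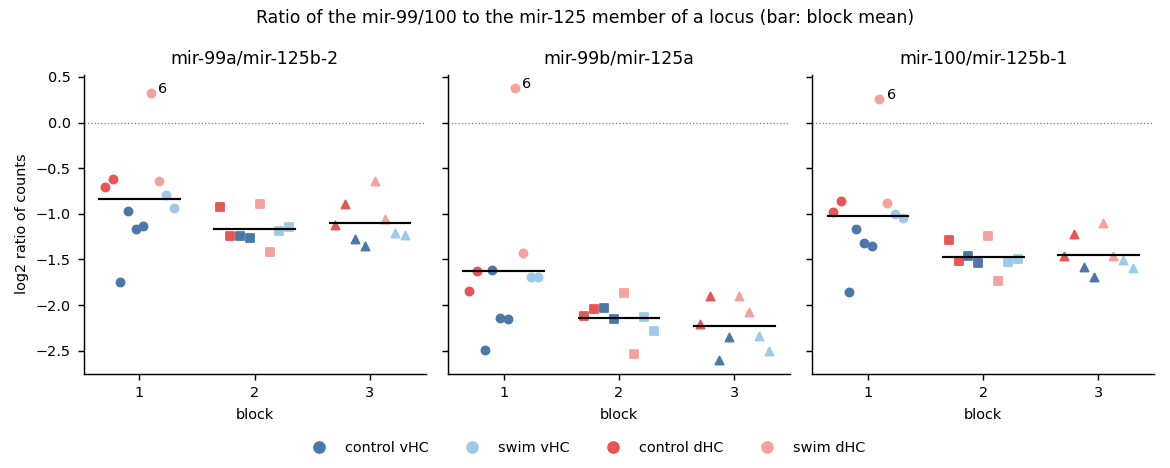
Log2 ratio of counts (y axis) of the mir-99/100 to the mir-125 entry of each cluster in every library, by block (x axis), coloured by group, with black bars for block means. Swim dHC library 6 (labelled 6) is the only library above 0, at 0.32, 0.38 and 0.26.

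Covariation was examined on what remained of log2 CPM after region, stress, their interaction and block were fitted, over 26 libraries and 21 pairs. Members with the same seed and different mature sequences correlated although they lie in different clusters. This was not particular to a shared seed. mir-99a had r = 0.80 with mir-379 against 0.74 with mir-99b, and mir-125a had 0.90 with mir-3968 against 0.84 with mir-125b-1. The entry most like mir-99a of all was mir-100, at 0.96. Between the mir-99/100 and the mir-125 entry of 1 cluster, no correlation was detected over all 26 libraries. Among the 3 pairs of the mir-99/100 family r was between 0.74 and 0.96, and mir-125a had 0.84 and 0.83 with the mir-125b copies, which are 1 observation. All of these had an adjusted permutation p under 0.05. Among the 9 pairs of members with different seeds r was between -0.42 and 0.052, and 0 passed. The pairs with let-7 genes, which also differ in seed, are given further on. For comparison, the middle 90% of all 106953 pairs of entries lay between -0.55 and 0.63 with a median of 0.024, and that of pairs among the 100 most abundant entries between -0.53 and 0.79.

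mir-99a and mir-100, on chromosomes 16 and 9, had r = 0.96 and rho = 0.95 (permutation p = 1e-05 each, the smallest that 100000 resamples give, adjusted p = 3e-05 and 3.5e-05). The value was 0.95, 0.99 and 0.93 within blocks 1, 2 and 3, and 0.93 without the 2 libraries farthest from the median. Both entries held counts that were not whole, in 22 and 20 of 26 libraries, as a division of reads among entries gives, and the rule for dividing them is not given in the sources used here. mir-99b, which differs from each of them at 4 bases, had r = 0.83 and rho = 0.76 with mir-100 (permutation p = 1e-05 and 2e-05) and r = 0.74 and rho = 0.63 with mir-99a (permutation p = 2e-05 and 6e-04). Without the 2 farthest libraries these were 0.72 and 0.56. The within-block values with mir-100 were 0.83, 0.89 and 0.69.

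mir-125a and mir-125b-1, on chromosomes 17 and 9, had r = 0.84 and rho = 0.84 (permutation p = 1e-05 each, adjusted p = 3e-05 and 3.5e-05). The value was 0.91, 0.85 and 0.82 within the blocks and 0.78 without the 2 farthest libraries. With mir-125b-2 it was 0.83. The 2 copies of mir-125b had r = 0.999, which their shared sequence fixes.

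Pairs of 1 cluster from different families had low values. The 47408 bp cluster gave r = -0.073 and rho = 0.10 for mir-99a with mir-125b-2 (permutation p = 0.722 and 0.626). The 692 bp cluster gave r = -0.18 and rho = 0.13 for mir-99b with mir-125a (permutation p = 0.392 and 0.512), and the 50578 bp cluster r = 0.024 and rho = 0.21 for mir-100 with mir-125b-1 (permutation p = 0.908 and 0.301). Within block 1 they were -0.68, -0.32 and -0.53, against 0.40, -0.099 and 0.49 in block 2 and 0.31, 0.39 and 0.39 in block 3.

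These low values rest partly on swim dHC library 6. Without it the 3 cluster pairs had r = 0.28, 0.36 and 0.49 (adjusted permutation p = 0.202, 0.129 and 0.0223), so that mir-100 and mir-125b-1 passed, and block 1 gave -0.34, 0.38 and 0.099. Without control dHC library 24 they were -0.34, -0.21 and -0.22, and none passed, with adjusted permutation p of 0.148, 0.387 and 0.385. The same-seed pairs without swim dHC library 6 had r = 0.94 for mir-99a with mir-100, 0.78 for mir-99b with mir-100, 0.64 for mir-99a with mir-99b and 0.85 for mir-125a with mir-125b-1, all with an adjusted permutation p under 0.05. The pair mir-99a and mir-125a, from different clusters, had r = -0.42 (adjusted permutation p = 0.078). It passed in 4 of 26 sets without 1 library, at -0.51 without control dHC library 24, -0.46 without control vHC library 17, -0.47 without swim vHC library 19 and -0.47 without control vHC library 25, and was 0.086 without swim dHC library 6. That a same-seed value differs from a same-cluster value was not tested. When the log10 total count was also removed, mir-99a with mir-125b-2 had r = -0.50 and mir-100 with mir-125b-1 r = -0.50 (adjusted permutation p = 0.0181 and 0.0186). The value for mir-99b with mir-125a was -0.27. By rank these pairs did not pass, with rho of -0.044, -0.093 and -0.065 in that order (adjusted permutation p = 0.83, 0.807 and 0.807). Block 3 gave r of 0.17, -0.035 and 0.22.

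The let-7 entry of each cluster correlated with its mir-125 partner. This was not particular to cluster partners, since let-7d, outside the 3 clusters, had r = 0.88 with mir-125a. Counts of let-7c-1 and let-7a-2 were not whole in 26 of 26 libraries and those of let-7e in 25, as a division of reads gives. These entries therefore need not measure the gene of the cluster alone. The value of r was 0.80 for mir-125b-2 with let-7c-1, 0.79 for mir-125a with let-7e and 0.81 for mir-125b-1 with let-7a-2, with rho of 0.74, 0.86 and 0.79 and permutation p between 1e-05 and 4e-05. The 3 adjusted permutation p were at most 1.05e-04. Within blocks these values lay between 0.77 and 0.91. With the log10 total count also removed, they were 0.44 and 0.40 in blocks 2 and 3 for mir-125b-2 with let-7c-1 and 0.47 and 0.23 for mir-125b-1 with let-7a-2, and 0.80 and 0.79 for mir-125a with let-7e. The mir-99/100 partners had r = -0.27 for mir-99a with let-7c-1, -0.11 for mir-99b with let-7e and 0.15 for mir-100 with let-7a-2, and 0 of 3 passed, with adjusted permutation p of 0.307 or more. With the total count removed 2 of 3 passed by r, at -0.70 for mir-99a with let-7c-1 and -0.58 for mir-100 with let-7a-2 (adjusted permutation p = 3.67e-04 and 0.00441). By rank neither passed, with rho of -0.42 and -0.24 (adjusted permutation p = 0.0675 and 0.422).

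**Figure D4:**
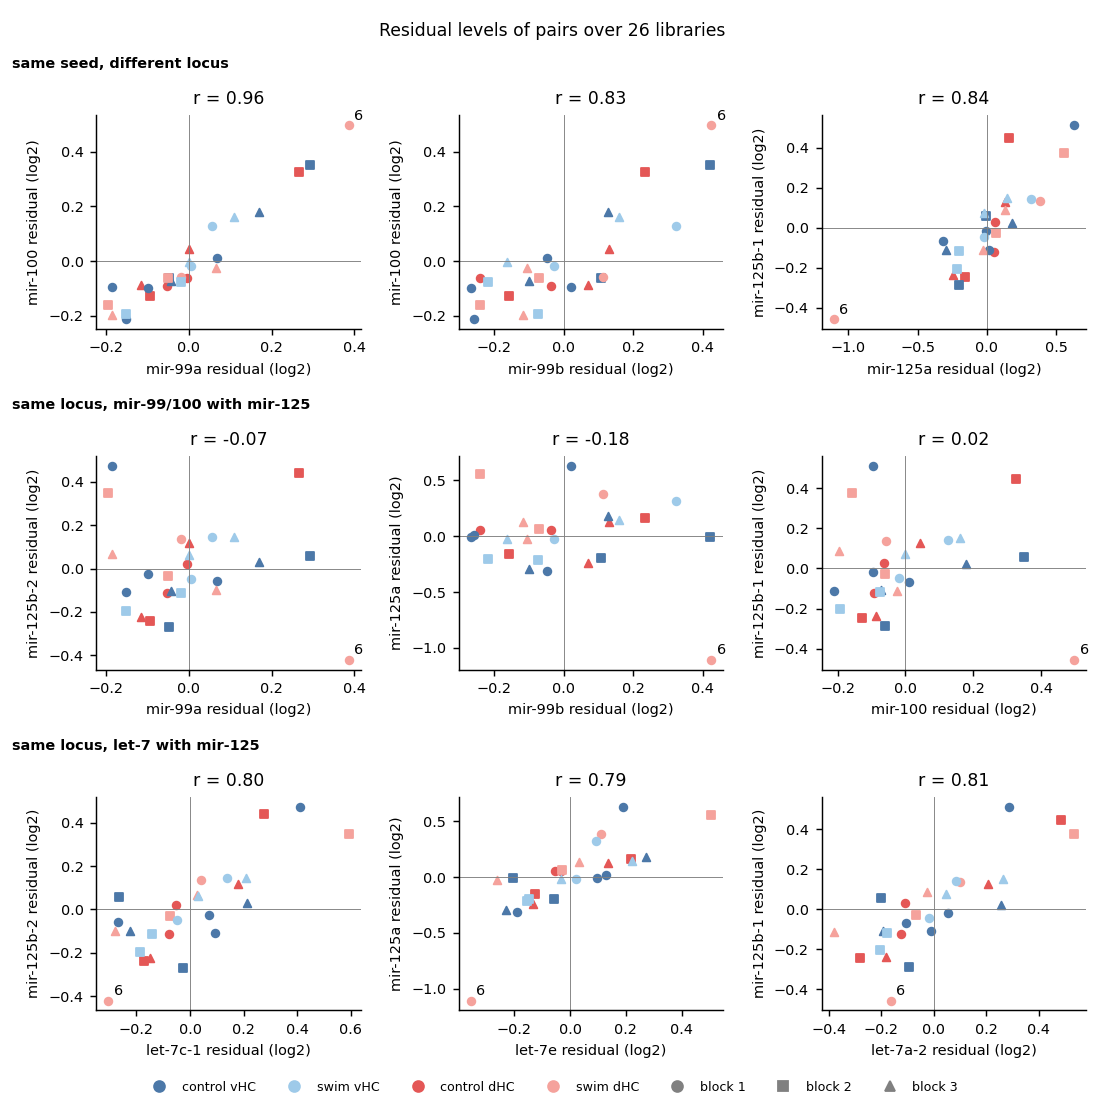
Residual log2 CPM of 9 pairs over 26 libraries, coloured by group, with the marker shape for the block. The top row pairs members of the same seed in different clusters (r = 0.96, 0.83 and 0.84), the middle row the mir-99/100 and mir-125 members of 1 cluster (r = -0.07, -0.18 and 0.02, with swim dHC library 6 labelled), and the bottom row let-7 and mir-125 of 1 cluster (r = 0.80, 0.79 and 0.81).

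The 3 entries most like each member in these residuals, by r over 26 libraries with the members and let-7 partners set aside, are given as a description. These libraries share their depth and scaling. For mir-99a they were mir-379 (0.80), mir-101b (0.80) and mir-7a-1 (0.78), and for mir-100 mir-7b (0.83), mir-7a-1 (0.82) and mir-7a-2 (0.82). For mir-99b they were mir-382 (0.81), mir-409 (0.81) and mir-7a-2 (0.80). For mir-125a they were mir-3968 (0.90), let-7d (0.88) and mir-543 (0.87), and for both mir-125b entries mir-30c-2 (0.89 and 0.88), mir-30c-1 (0.88 and 0.87) and mir-434 (0.85 and 0.85). The mir-7 entries thus appeared with all 3 members of the mir-99/100 family and with none of the mir-125 family.

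Library depth went with the level of mir-125b within block 2 and block 3, but not within block 1 with all its libraries kept. The total count is also the denominator of CPM, and the libraries of a block share only a date in the labels. Over all 26 libraries, log2 CPM against log10 total count had r = -0.50 and rho = -0.51 for mir-125b-1 (permutation p = 0.0130 and 0.00823, adjusted over 6 members 0.0259 and 0.0179), and r = -0.51 for mir-125b-2. mir-100 had r = -0.53 and rho = -0.21 (permutation p = 0.00941 and 0.296), and mir-125a r = -0.24 and rho = -0.53 (permutation p = 0.187 and 0.00674). Without the 2 libraries farthest from the median depth, r was -0.24 for mir-125b-1, -0.25 for mir-125b-2 and -0.30 for mir-100, and without control dHC library 24 alone 0 of 6 members passed. The pooled r therefore depended on those libraries. By rho over all 26 libraries, mir-125a and both mir-125b entries passed (adjusted permutation p = 0.0179 each). Without swim dHC library 6 the pooled r was -0.72 for mir-125b-1, and mir-125a then also passed with r = -0.61 (adjusted permutation p = 3e-04 and 0.0015).

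Within blocks 2 and 3 the values for mir-125b were near -1. mir-125b-1 had r = -0.94 in block 2 (n = 8, exact permutation p = 0.00181, adjusted p = 0.00543) and r = -0.93 in block 3 (n = 8, exact permutation p = 6.94e-04, adjusted p = 0.00238), against 0.037 in block 1 (n = 10, permutation p = 0.913). Without control dHC library 24, block 2 gave -0.92 (n = 7, exact permutation p = 0.0145, adjusted p = 0.029). Without swim dHC library 6, which was chosen for its own mir-125 levels, block 1 gave -0.89 (n = 9, exact permutation p = 0.00245, adjusted p = 0.00918). Of all 463 entries, 1.3% had r of -0.9 or lower in both block 2 and block 3, namely both mir-125b entries, let-7g, mir-9-1, mir-9-2 and mir-9-3. The cut lies close to the values of mir-125b, whose place among these entries therefore follows from it. Copies of mir-125b and of mir-9 are counted as separate entries. In block 1 without swim dHC library 6, 17 of the 463 entries had r of -0.85 or lower.

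The mir-99/100 family had values of both signs. In order of block, mir-99a had r = -0.096, -0.72 and 0.12 in blocks 1, 2 and 3, and mir-100 had -0.36, -0.77 and -0.33. Without control dHC library 24, block 2 gave -0.10 for mir-99a and -0.32 for mir-100 (n = 7), and without swim dHC library 6 block 1 gave 0.75 for mir-99a (n = 9, exact permutation p = 0.0178, adjusted p = 0.0356). mir-125a followed mir-125b in direction in blocks 2 and 3, with r = -0.73 and -0.73 (n = 8 each, exact permutation p = 0.0170 and 0.0376, adjusted p = 0.034 and 0.0752).

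**Figure D5:**
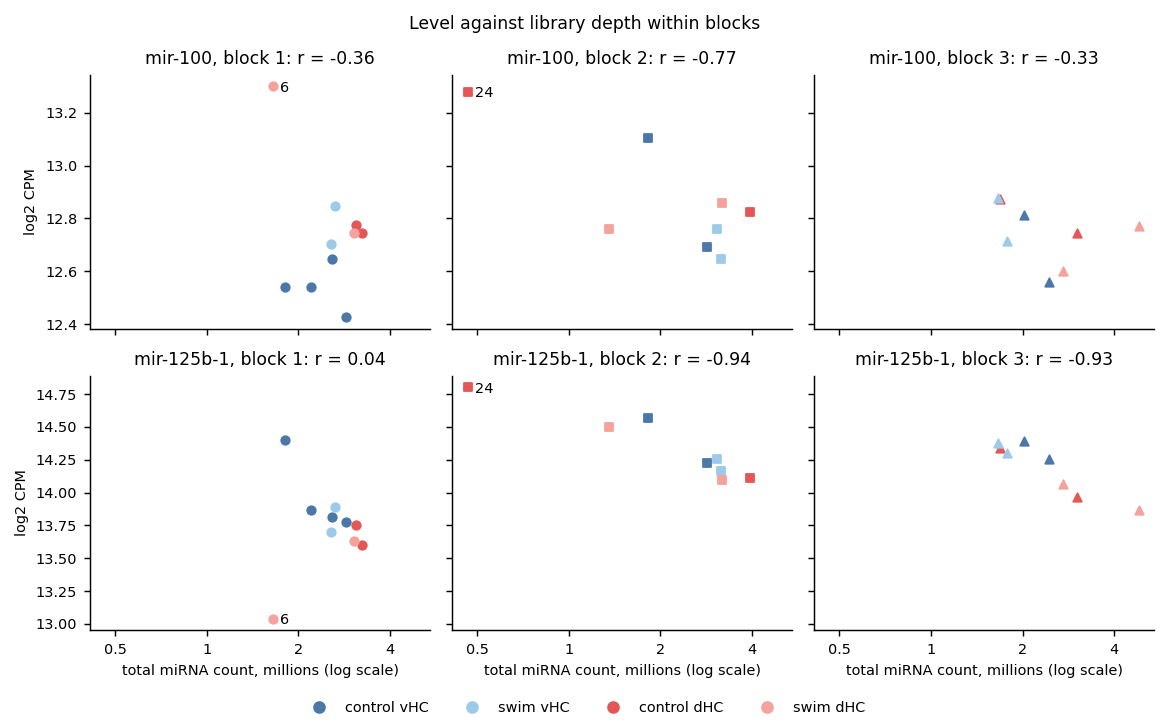
Log2 CPM (y axis) of mir-100 (top) and mir-125b-1 (bottom) against the total miRNA count (x axis, log scale) in blocks 1, 2 and 3, coloured by group. mir-125b-1 falls with depth in blocks 2 and 3 (r = -0.94 and -0.93), and in block 1 swim dHC library 6 (labelled 6) lies below the other libraries.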

How the data were processed

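Small RNA of mouse hippocampus was measured in 26 libraries (Nextflex v3). Per the paper's methods, the authors trimmed adapters with cutadapt (minimum read length 18), collapsed reads of identical sequence and UMI, removed the UMIs and quantified entries with Sports 1.0. The deposited values are expected counts per entry, not normalized, with 29.5% of values not whole, and the rule for dividing reads among entries is not given in the sources used here. GRCm38 is named in the submitters' processing notes. Groups, regions and blocks came from the labels, and no columns were identical.

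Expected counts were rounded to whole numbers, filtered with filterByExpr (minimum count 10, minimum total 15) and scaled by TMM over the miRNA counts. edgeR 4.0.16 quasi-likelihood tests (R 4.3.3) used all 26 libraries. Stress was tested with 2 surrogate variables (sva 3.50.0) as in the paper's methods, region with block as a covariate, and block without surrogate variables. Adjustment was by Benjamini-Hochberg over 463 entries. Ratios were compared by two-sided exact permutation, and correlations with 100000 permutations (numpy 2.4.6, scipy 1.17.1), which treat residuals as exchangeable. log2 CPM had a prior count of 2. Alternatives used DESeq2 1.42.0, other scalings, filters and covariates, and each library left out. The fit with block as a covariate and no filter was run on simulated counts without a block effect. The stress fit with surrogate variables was not simulated. Precision is given as SE and 95% intervals, since totals per library ranged from 465387 to 4819724.

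The members, the cell type lists, the 3 let-7 partners and the rule for named entries (the members, their partners and the 3 most alike entries of each) were chosen with earlier results of these data known. Positions matched for 9 of 9 hairpins in GENCODE vM21. Mature sequences came from RefSeq, and the 5p form of let-7a at let-7a-2 is not shown.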

Additional observations from a re-analysis of the deposited data

Results flagged for a closer look

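In 52 groups of 6 or 8 libraries, the levels of the 6 members and 7 log2 ratios were checked for a single library far from the others of its group, and 5 were found. Chance gives such a library in about 1 in 20 groups, and these measures share libraries. In control dHC, library 24, which had the lowest total count, was the highest for mir-99a at 12292 normalized CPM (next 9777) and for mir-100 at 9940 (next 7512). In swim dHC, library 6 was the highest for mir-100 at 10086 normalized CPM (next 7422). The same library was the lowest for the log2 ratio of mir-125a to the sum of the mir-125b copies, at -1.61 (next -1.03), and for the log2 ratio of mir-125a to let-7e, at 1.11 (next 1.85). What sets these libraries apart was not tested. The interaction of region and stress passed for 0 of the 6 members.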

How the results depend on the processing

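No paired analysis was run because the labels do not name the animal and library numbers are unique across groups. Counts below are of the 6 members at an adjusted p under 0.05, without the share of all entries called in the same fit. Stress, its interaction with region and the ratios gave 0 under all alternatives run. Region in control mice gave 1 (mir-99a) with DESeq2 size factors, 1 with TMMwsp, 1 with DESeq2 and 1 with mir-125b copies summed, and 0 to 1 with a library left out; region after swim gave 0 to 1. Block gave 4 with DESeq2 size factors, 4 with TMMwsp and 4 with DESeq2, and 2 to 4 with a library left out. The depth correlation gave 0 within block 1, chosen after seeing the data as were the sets without swim dHC library 6 in block 1 and control dHC library 24 in block 2, and 0 to 4 of 6 with a library left out. By r, 17 of 21 pairs passed with the log10 total count removed too, against 9 without that. The pairs gained had adjusted permutation p of rho from 0.0675 to 0.83. The cause of these shifts was not tested.

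Of single values, 29 of 317 turned sign under other alternatives. For stress in vHC, mir-125b-1 was 0.025 with DESeq2 size factors, 0.048 with TMMwsp and 0.025 with DESeq2, and mir-125b-2 was -0.0020 without a filter, -0.048 without surrogate variables and -0.14 with block in their place. Without a filter, stress in dHC was 0.0065 for mir-100 and 0.010 for mir-99a. The interaction for mir-125a was 0.016 without surrogate variables and 0.050 with block in their place. With 2 surrogate variables in place of block, region was 0.57 for mir-125a, 0.37 for mir-125b-1 and 0.38 for mir-125b-2 in control mice, and 0.49, 0.14 and 0.16 after swim. Correlations on unadjusted log2 CPM were 0.13 for mir-99a with mir-125b-1, 0.14 with mir-125b-2 and 0.065 with let-7c-1, and -0.36 and -0.34 for mir-99b with mir-125b-1 and mir-125b-2. With DESeq2 size factors they were 0.067 and 0.092 for mir-99a with the mir-125b copies and 0.074 for mir-99b with let-7e. With the total count removed they were -0.30 and -0.27 for mir-99b with the mir-125b copies, -0.50 and -0.48 for mir-100 with them and -0.58 for mir-100 with let-7a-2.

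With a library left out, 71 of 1794 single values turned sign. The ranges of stress in vHC were -0.18 to 0.0087 for mir-125a, -0.023 to 0.11 for mir-125b-1, -0.019 to 0.11 for mir-125b-2 and -0.23 to 0.0061 for mir-99b. Those of stress in dHC were -0.15 to 0.048 for mir-100, -0.10 to 0.028 for mir-99a and -0.00076 to 0.20 for mir-99b. The interaction for mir-125a was -0.23 to 0.11, and region after swim -0.032 to 0.13 for mir-100 and -0.28 to 0.027 for mir-125a. Correlations of mir-99a ranged from -0.51 to 0.086 with mir-125a, -0.36 to 0.26 with mir-125b-1 and -0.34 to 0.28 with mir-125b-2. Those of mir-99b ranged from -0.28 to 0.36 with mir-125a, -0.12 to 0.33 with mir-125b-1, -0.093 to 0.36 with mir-125b-2 and -0.20 to 0.11 with let-7e. Those of mir-100 ranged from -0.42 to 0.35 with mir-125a, -0.22 to 0.49 with mir-125b-1, -0.20 to 0.52 with mir-125b-2 and -0.074 to 0.34 with let-7a-2. The stress difference in dHC in log2 ratios was -0.016 to 0.33 for mir-99a over mir-125b-2, -0.0035 to 0.58 for mir-99b over mir-125a and -0.064 to 0.34 for mir-100 over mir-125b-1. The low ends of these ratios came without swim dHC library 6.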
